A study of Homo sapiens with 8 samples.

Results

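NRF2, the transcription factor encoded by NFE2L2, its inhibitor KEAP1 and 7 of their best-known target genes (HMOX1, NQO1, GCLC, GCLM, TXNRD1, SRXN1 and OSGIN1) were followed in RNA sequencing of HaCaT cells. The 9 genes were chosen by name, through their Entrez identifiers, among 17131 genes of the deposited table. Earlier results of these data were known when they were chosen. All 9 had enough reads to be tested. HaCaT is an established, spontaneously immortalised line of human keratinocytes, labelled wild type. All 8 cultures received M5, a cocktail of 5 cytokines that brings keratinocytes into a psoriasis-like state, for 24 h. It holds TNF-α, oncostatin M, IL-1α and the interleukins 17A and 22. OTS514, an inhibitor of the kinase TOPK, was given to 4 of them, at 10 nM and from 12 h before M5 by the methods, and no culture without M5 was analysed here. The labels conflict on which 4 these were, since the titles M5_O5 and M5 name the first as the group with the inhibitor, while the treatment field enters the TOPK inhibitor for the libraries titled M5 and none for those titled M5_O5. Groups are therefore named by title, and every direction is between titles. If the treatment field holds, a gene higher in M5_O5 is a gene lower with OTS514.

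The total count was between 13708055 and 16922693 per library, and the smallest total was that of M5 replicate 1. All 10 keratinocyte markers examined, such as KRT5 and KRT14, were present at 19700 to 24500 TPM in sum (a unit that corrects for transcript length and library size). No melanocyte marker reached 1 TPM, nor did any endothelial marker in the table, from which KDR and EMCN were absent. The immune markers PTPRC and CD79A were listed at 0 and CD14 at 44.8 to 54.3 TPM. COL1A1, at 9.06 to 13.7 TPM, and CD14 were the only markers of the other cell types to pass 1 TPM. Fibroblast markers, mostly COL1A1, summed to 9.51 to 10.4 TPM in the M5_O5 and 12.7 to 14.9 TPM in the M5 libraries. The part of all these markers in any result below was not tested. In RNA of a whole culture, fewer cells with a transcript and less of it per cell cannot be told apart. Nothing in the labels says that the 4 replicates came from separate experiments, so the spread between them may be technical.

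KEAP1 is an adaptor that holds NRF2 in the cytoplasm and presents it to the ubiquitin ligase built on CUL3, so that NRF2 is degraded as fast as it is made. Oxidants and electrophiles modify cysteines of KEAP1, NRF2 escapes, enters the nucleus and pairs with a small MAF protein on antioxidant response elements, whose core reads TGACNNNGC. NRF2 activity is thus set mostly at the level of protein, and its own mRNA says little about it. The targets make glutathione, recycle thioredoxin, reduce quinones and break down haem, and in the epidermis the pathway is known for protection against ultraviolet light and reactive chemicals.

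The 250 bases upstream of the annotated starts were read from RefSeq (GRCh38.p14) for 8 of the 9 genes, in 11 windows, and not for HMOX1. Windows are shown for NQO1 and OSGIN1, which differed most between the groups, and for each other window with the element's core on either strand. Capitals mark TGACNNNGC and, in OSGIN1, TGACTCA, the site of AP-1 factors, which can overlap an antioxidant response element. The windows are chr16:69726561-69726810 (minus strand) for NQO1, chr16:83952990-83953239 (plus) for OSGIN1 and chr1:93909431-93909680 (minus) for GCLM. Those of TXNRD1 are chr12:104215529-104215778 and chr12:104286782-104287031 (both plus), and that of KEAP1 is chr19:10502772-10503021 (minus). Each is written 5′ to 3′ along the gene.
NQO1: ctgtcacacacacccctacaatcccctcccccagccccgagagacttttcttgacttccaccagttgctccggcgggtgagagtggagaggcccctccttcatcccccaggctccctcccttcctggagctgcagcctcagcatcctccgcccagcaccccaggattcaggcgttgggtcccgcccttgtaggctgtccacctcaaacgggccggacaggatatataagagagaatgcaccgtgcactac
OSGIN1: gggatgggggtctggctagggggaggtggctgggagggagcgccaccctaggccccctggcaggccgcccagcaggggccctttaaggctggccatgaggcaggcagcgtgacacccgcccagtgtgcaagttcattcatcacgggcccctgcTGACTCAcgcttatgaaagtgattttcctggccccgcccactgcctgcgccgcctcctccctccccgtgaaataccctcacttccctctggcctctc
GCLM: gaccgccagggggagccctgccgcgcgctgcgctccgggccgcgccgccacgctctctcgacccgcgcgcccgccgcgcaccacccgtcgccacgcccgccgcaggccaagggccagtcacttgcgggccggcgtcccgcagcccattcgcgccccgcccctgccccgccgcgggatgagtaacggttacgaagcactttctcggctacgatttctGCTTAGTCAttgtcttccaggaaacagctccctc
TXNRD1 upstream window: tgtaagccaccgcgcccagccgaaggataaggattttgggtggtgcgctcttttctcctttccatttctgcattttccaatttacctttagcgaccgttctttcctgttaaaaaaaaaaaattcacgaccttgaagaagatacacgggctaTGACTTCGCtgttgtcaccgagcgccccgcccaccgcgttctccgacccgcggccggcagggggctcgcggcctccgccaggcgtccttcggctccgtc
TXNRD1 downstream window: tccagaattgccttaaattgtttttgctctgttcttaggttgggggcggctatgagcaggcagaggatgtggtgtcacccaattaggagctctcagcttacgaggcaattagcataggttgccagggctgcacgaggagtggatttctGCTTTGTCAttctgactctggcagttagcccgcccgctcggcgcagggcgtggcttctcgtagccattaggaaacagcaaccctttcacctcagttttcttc
KEAP1: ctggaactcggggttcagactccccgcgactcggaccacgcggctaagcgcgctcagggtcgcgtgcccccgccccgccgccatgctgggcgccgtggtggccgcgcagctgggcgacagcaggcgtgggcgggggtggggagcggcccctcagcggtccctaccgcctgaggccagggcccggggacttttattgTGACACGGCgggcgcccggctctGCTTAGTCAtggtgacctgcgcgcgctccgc

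The core was found on either strand in windows of 3 of the 8 genes, GCLM, TXNRD1 and KEAP1, and in 13.2% of the 27305 genes with a window. It read TGACTAAGC in GCLM, 34 to 26 bases before the start, TGACTTCGC and TGACAAAGC in the windows of TXNRD1, and TGACACGGC and TGACTAAGC in KEAP1. TGACTCA stood only in OSGIN1, 97 to 91 bases before the start, and 5.19% of all genes had it. No match was found in the windows of NQO1, GCLC, SRXN1 and NFE2L2, which says only that these letters are not in these 250 bases.

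Of the 9 genes, 4 were higher in the libraries titled M5_O5, none was lower and 5 did not pass the test. NQO1 and OSGIN1 were about 2-fold higher, GCLC was 1.44-fold and GCLM 1.21-fold higher, while the other 3 targets, HMOX1, SRXN1 and TXNRD1, and the regulators NFE2L2 and KEAP1 did not pass. The test was the quasi-likelihood test of edgeR, with Benjamini-Hochberg adjustment over 12434 genes, and a gene passed at an adjusted p-value under 0.05. By this rule 37.1% of all genes passed, 19.5% higher in M5_O5 and 17.6% lower. With the 2-fold threshold of the methods added, 2 of the 9 genes, NQO1 and OSGIN1, were higher, against 2.87% of all genes higher, 0.33% lower and 3.2% in either direction. The median log2 fold change of the 9 genes was 0.13 and that of the 7 targets 0.27, against 0.01 for all genes tested.

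**Figure D1:**
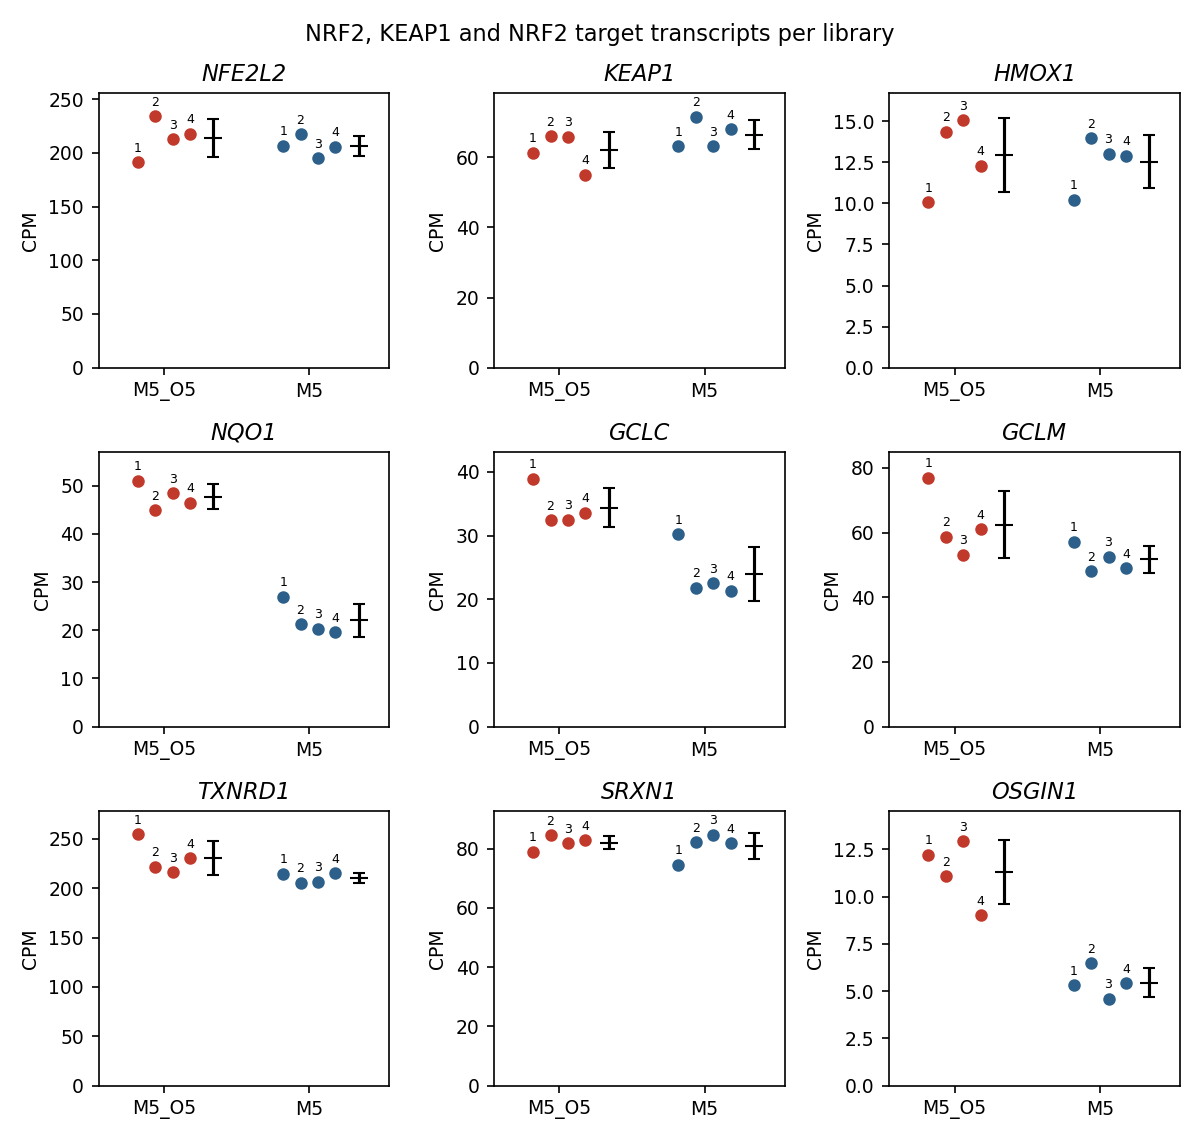
Read levels (CPM, scaled by TMM, from 0 on each axis) of the 9 genes in each library, with the replicate number above each point and the mean ± SD of 4 libraries beside each group. NQO1, OSGIN1 and GCLC separate the groups, and TXNRD1 does so only just, while GCLM, NFE2L2, KEAP1, HMOX1 and SRXN1 overlap. Of all genes tested, 33.6% had groups that did not overlap.

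NQO1 (Entrez gene 1728) encodes the NAD(P)H quinone dehydrogenase, which reduces quinones by a pair of electrons at once and is the standard readout of NRF2 activity. In the M5_O5 libraries 1 to 4 it had 51.0, 44.9, 48.4 and 46.5 CPM (counts scaled to library size, with TMM factors), and in the M5 libraries 26.9, 21.3, 20.3 and 19.6 CPM. Every M5_O5 library lay above every M5 library, and the highest of the M5 libraries was replicate 1. The means were 47.7 ± 2.64 and 22.0 ± 3.35 CPM (SD, n = 4 each), which is 1.12 on the log2 scale with a standard error of 0.09 (edgeR, adjusted p = 1.31e-06). The call held in all 18 alternatives, with log2 fold changes from 1.06 to 1.24. Most of its reads belonged to 1 transcript, NM_000903, with 90.3% ± 1.32 of the gene's TPM in M5_O5 and 89.6% ± 3.24 in M5 (SD, n = 4), and these shares overlapped (difference 0.678 percentage points, two-sided exact permutation test, p = 0.686).

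OSGIN1 (Entrez gene 29948), an oxidative stress induced growth inhibitor first described as a tumour suppressor, was the least expressed of the 9. It had 12.2, 11.1, 12.9 and 9.03 CPM in the M5_O5 libraries and 5.33, 6.47, 4.61 and 5.42 CPM in the M5 libraries. The groups did not overlap, although OSGIN1 rests on only 70 to 218 reads per library. The difference on the log2 scale was 1.05 with a standard error of 0.14 (edgeR, adjusted p = 5.46e-05). Once the trend of fold change on expression level was taken out it was 0.89 (adjusted p = 0.000232), which still passed the test and fell short of 2-fold. It also fell short without M5_O5 replicate 3 (0.98) and without M5 replicate 3 (0.976).

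GCLC (Entrez gene 2729) and GCLM (Entrez gene 2730) encode the catalytic and the modifier subunit of glutamate-cysteine ligase, the rate-limiting enzyme of glutathione synthesis. GCLC had 38.9, 32.4, 32.5 and 33.6 CPM in the M5_O5 and 30.2, 21.8, 22.5 and 21.4 CPM in the M5 libraries, so that M5 replicate 1 came close to the M5_O5 libraries without reaching them. It was higher by 0.52 on the log2 scale with a standard error of 0.10 (edgeR, adjusted p = 0.00153), and 0.649 without M5 replicate 1. It passed in all 18 alternatives.

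GCLM had 77.0, 58.8, 53.2 and 61.0 CPM in the M5_O5 and 57.2, 48.1, 52.6 and 49.0 CPM in the M5 libraries. The groups overlapped, since M5 replicate 1 lay above M5_O5 replicate 3, and M5_O5 replicate 1 stood highest. The difference of 0.27 on the log2 scale, with a standard error of 0.10 (edgeR, adjusted p = 0.0403), passed narrowly, and the exact permutation test did not (two-sided, p = 0.0571). The call was lost without M5_O5 replicate 1 (0.157, adjusted p = 0.115), without M5_O5 replicate 4 (0.285, adjusted p = 0.0665), and without M5 replicate 2 (0.239, adjusted p = 0.102), replicate 3 (0.28, adjusted p = 0.0761) or replicate 4 (0.247, adjusted p = 0.111). It was also lost with limma on log2(TPM + 1) (0.367, adjusted p = 0.0591) and on log2(TPM + 0.1) (0.384, adjusted p = 0.0569). The ratio of GCLM to GCLC within a library, which does not depend on scaling, was 1.35 in M5_O5 and 1.63 in M5, from TPM. That difference of -0.27 on the log2 scale did not pass (two-sided exact permutation test, p = 0.0571, adjusted over 4 ratios 0.114).

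TXNRD1 (Entrez gene 7296) encodes the cytosolic thioredoxin reductase, a selenoprotein. It had 254.8, 221.7, 216.4 and 230.3 CPM in the M5_O5 and 215.0, 205.7, 206.9 and 215.5 CPM in the M5 libraries. The groups did not overlap, but only just, and 33.6% of all genes had groups that did not overlap. The log2 fold change was 0.13 (95% interval 0.01 to 0.26, adjusted p = 0.0913, edgeR), short of the threshold. It passed in 5 alternatives, which were scaling by library totals alone (0.247, adjusted p = 0.00744), removal of the expression trend (0.259, adjusted p = 0.00515), both TPM scales with limma (adjusted p = 0.039) and a block for the replicate number (0.129, adjusted p = 0.0473). Under library totals alone all genes had a median of 0.128, and on log2(TPM + 1) it was 0.116, so that the excess of TXNRD1 over other genes was smaller than these values.

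Whether the transcripts of TXNRD1 stood in the same proportion in both groups was not settled by the values. NM_182729 held 68.3% ± 1.05 of the gene's TPM in the M5_O5 libraries and 65.1% ± 0.957 in the M5 libraries (SD, n = 4), and NM_003330 held 17.5% ± 1.22 against 20.9% ± 1.07. Neither pair of groups overlapped (two-sided exact permutation tests, p = 0.0286 each, the smallest that 4 libraries against 4 allow). Both are shares of the same total, so they are not separate observations. How often transcripts of other genes separate the groups was not computed. Adjusted over the 5 transcripts tested, neither passed (exact permutation, adjusted p = 0.0714). Both were already at the smallest p-value, so larger differences in these shares could not have passed either. The shares come from the authors' estimates for transcripts of 1 gene, which share exons, so that reads had to be divided between them. The ratio of TXNRD1 to TXN, its substrate thioredoxin, was 0.121 in M5_O5 and 0.111 in M5 (two-sided exact permutation test, p = 0.0571, adjusted 0.114).

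**Figure D2:**
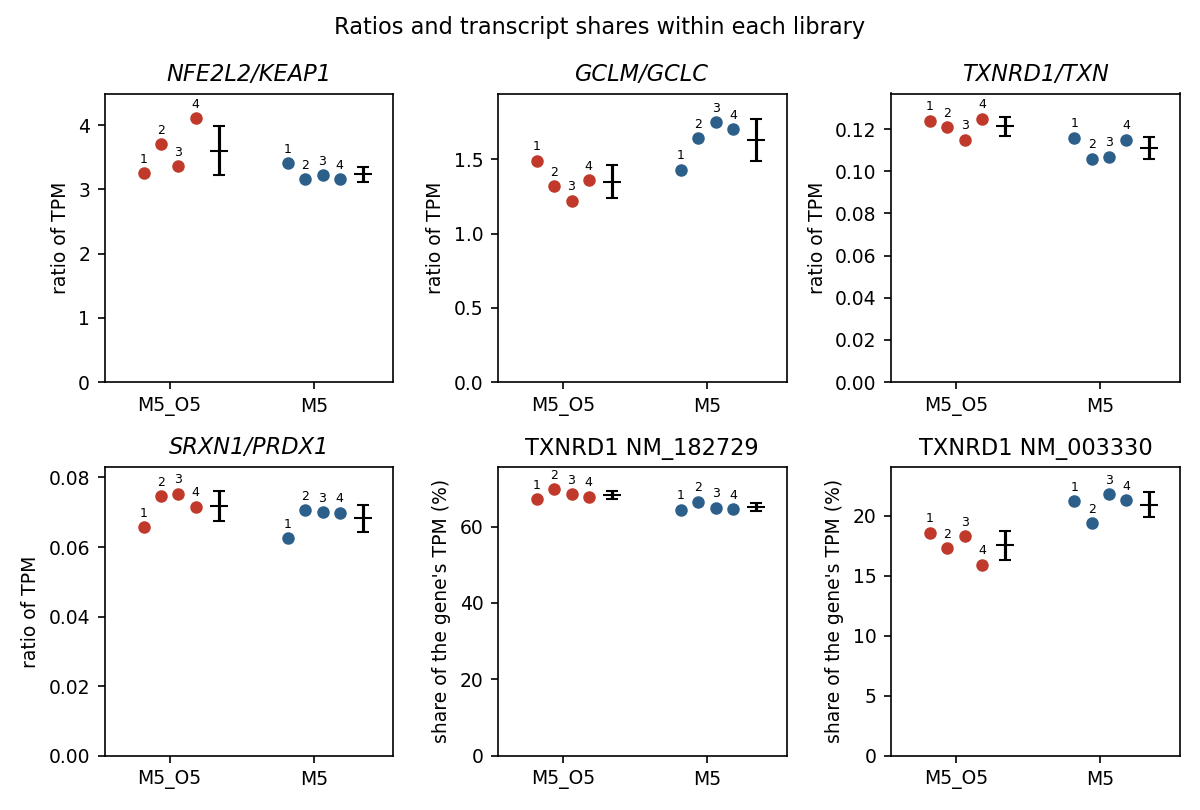
Ratios of the TPM of 2 genes (first 4 panels) and the percentage of TXNRD1 TPM in 2 of its transcripts (last 2 panels), by library, with replicate numbers and mean ± SD of 4 libraries. The transcript shares separate the groups, at 67.2% to 69.7% against 64.4% to 66.5% for NM_182729, and the 4 ratios overlap.

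HMOX1 (Entrez gene 3162), the inducible haem oxygenase, had 10.1, 14.4, 15.1 and 12.3 CPM in the M5_O5 and 10.2, 14.0, 13.0 and 12.9 CPM in the M5 libraries. Both groups covered nearly the same range, with the lowest value in a library numbered 1 in each. The log2 fold change was 0.04 with a 95% interval from -0.23 to 0.32 (adjusted p = 0.817, edgeR), the widest interval among the 5 genes that did not pass. Its sign was negative after removal of the expression trend and without M5_O5 replicate 2, M5_O5 replicate 3 or M5 replicate 1.

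SRXN1 (Entrez gene 140809) encodes sulfiredoxin, which repairs overoxidised peroxiredoxins. It had 79.0, 84.5, 82.0 and 82.8 CPM in the M5_O5 and 74.6, 82.2, 84.8 and 81.8 CPM in the M5 libraries, and the groups overlapped. The log2 fold change was 0.02 (95% interval -0.10 to 0.14, adjusted p = 0.788, edgeR), so that a difference as large as those of NQO1, OSGIN1 or GCLC lay outside the interval. It passed under library totals alone (0.138, adjusted p = 0.0462) and on both TPM scales (0.145 and 0.148, adjusted p = 0.0427 and 0.0447), where the median of all genes was of nearly the same size. The ratio of SRXN1 to its substrate PRDX1 was 0.0718 in M5_O5 and 0.0682 in M5 (two-sided exact permutation test, p = 0.257, adjusted 0.257).

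NFE2L2 (Entrez gene 4780) was the most abundant of the 9 per length. It had 191.5, 234.2, 212.9 and 218.0 CPM in the M5_O5 and 206.5, 217.4, 195.1 and 205.6 CPM in the M5 libraries, with both the highest and the lowest value in M5_O5. The log2 fold change was 0.05 (95% interval -0.08 to 0.19, adjusted p = 0.522, edgeR). It passed under library totals alone (0.17, adjusted p = 0.0389, edgeR), where the median of all genes was 0.128. It also passed after removal of the expression trend (0.18, adjusted p = 0.0352, edgeR), where that median was -0.005.

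KEAP1 (Entrez gene 9817) had 61.3, 65.9, 65.9 and 55.0 CPM in the M5_O5 and 63.1, 71.6, 63.2 and 68.0 CPM in those titled M5, overlapping ranges, and differed by -0.10 on the log2 scale (95% interval -0.25 to 0.05, adjusted p = 0.277, edgeR). Its sign was positive under library totals alone and on the TPM scales. KEAP1 was divided between transcripts NM_203500, with 53.4% ± 8.11 of its TPM in M5_O5 and 59.9% ± 7.09 in M5, and NM_012289, with 42.6% ± 8.53 and 37.7% ± 6.47 (SD, n = 4), and these shares overlapped between the groups (two-sided exact permutation tests, p = 0.229 and p = 0.429). The ratio of NFE2L2 to KEAP1 was 3.60 in M5_O5 and 3.24 in M5, and ranged from 3.25 to 4.11 and from 3.16 to 3.41 (two-sided exact permutation test, p = 0.114, adjusted 0.152).

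**Figure D3:**
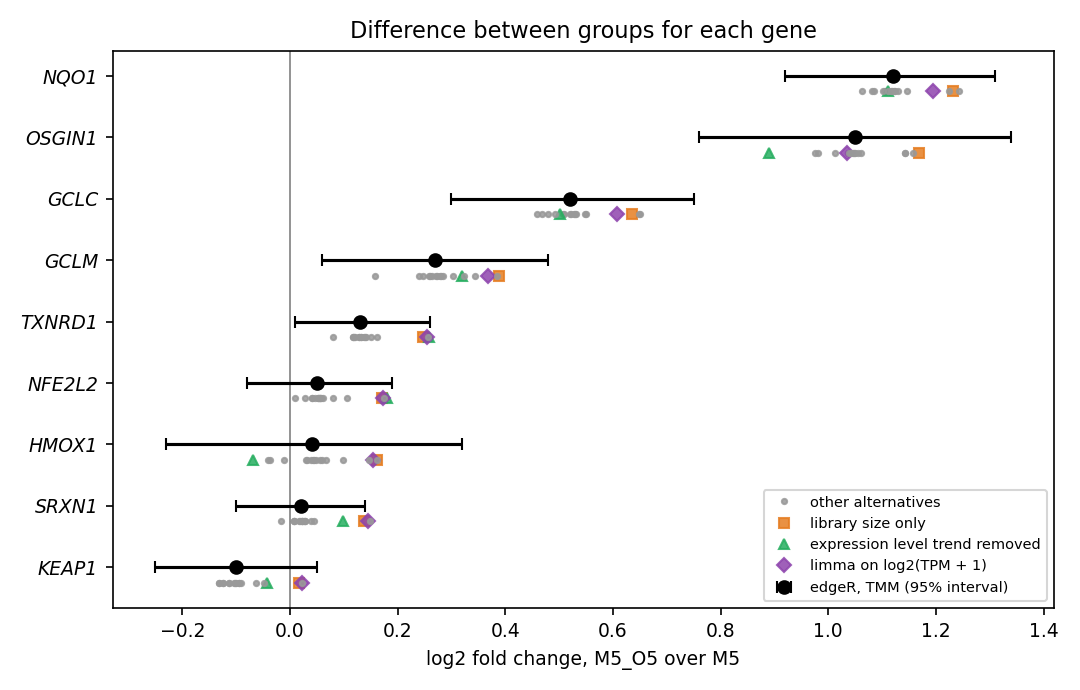
Log2 fold change (M5_O5 over M5) of the 9 genes with the 95% interval from edgeR after TMM scaling (black), and below each the values under the 18 alternatives (squares for library size only, triangles for the expression level trend removed, diamonds for log2(TPM + 1), grey for the rest). NQO1, OSGIN1 and GCLC stay above 0.4 throughout, and the values of HMOX1, SRXN1 and KEAP1 fall on both sides of 0.

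Whether the 7 targets differed between the groups by unlike amounts was compared within libraries, through the ratio of counts of each pair. This comparison was chosen after the values were seen. Of 21 pairs, 10 had groups that did not overlap (two-sided exact permutation test, p = 0.0286 each, the smallest that 4 libraries against 4 allow). No share for pairs of other genes was computed, and of single genes 33.6% had groups that did not overlap. Apart from GCLC against TXNRD1, each of the 10 included NQO1 or OSGIN1, so the count largely restates the differences of these genes. None passed after adjustment over the 21 pairs (two-sided exact permutation test, adjusted p = 0.06 for these 10). A larger difference could not have lowered these values, so the adjusted test cannot decide whether the targets differed. In edgeR, the 95% intervals of NQO1 (0.92 to 1.31) and OSGIN1 (0.76 to 1.34) lay above those of the other targets. That of GCLC (0.30 to 0.75) reached nearest to them. NQO1 took part in 5 of the 10, with log2 differences of 1.10 against SRXN1, 0.86 against GCLM and 0.60 against GCLC, HMOX1 against NQO1 differed by -1.09, and TXNRD1 was the other partner. OSGIN1 took part in 4, against HMOX1, GCLM, TXNRD1 and SRXN1, and the last was GCLC against TXNRD1, by 0.40. NQO1 and OSGIN1 differed from each other by 0.08 (exact permutation test, p = 0.657).

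On the scale of TPM, NFE2L2 came first, with a mean of 153.6 TPM over the 8 libraries, followed by TXNRD1 (104.2), SRXN1 (57.7), KEAP1 (44.99), NQO1 (25.4), GCLM (19.6), HMOX1 (16.1), GCLC (13.4) and OSGIN1 (8.31). The first 4 kept this order in both groups without overlap, since the lowest SRXN1 value, 52.5 TPM, lay above the highest KEAP1 value, 47.1 TPM. In the M5 libraries the ranges of GCLM (14.7 to 20.4 TPM), NQO1 (13.2 to 20.2 TPM) and HMOX1 (13.6 to 16.0 TPM) overlapped. Within each M5 library GCLM lay above NQO1, while HMOX1 kept no fixed place beside them. In the M5_O5 libraries NQO1, at 32.2 to 39.7 TPM, lay above all of GCLM, HMOX1 and GCLC. OSGIN1 was last in both, at 4.21 to 5.69 TPM in M5 and 9.38 to 12.9 TPM in M5_O5.

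Around these genes, 95 further genes of the pathway were arranged in 7 lists by role, of which 89 could be tested. Of the 89, 32 were higher in M5_O5, 12 were lower and 45 did not pass, with a median log2 fold change of 0.11. These are 36.0% and 13.5% of the 89, beside 19.5% and 17.6% of all genes tested, whose median was 0.01. The lists were written with earlier results of these data known, so the choice of genes may itself enter this contrast. CHAC1, 1 of the 89, passed with a difference of 2-fold or more, as did 3.2% of all genes, so this share is not above the background. The same shares of all genes are the background of each list, and by their percentages higher and lower the lists ranged from 7.14% and 35.7% (control of NRF2) through 29.4% and 11.8% (detoxification) to 52.9% and 5.88% (glutathione). No list was tested against other genes. Under library totals alone the split of the 89 was 42 higher and 7 lower, and over all genes it went from 2420 higher and 2192 lower to 3858 and 1008.

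**Figure D4:**
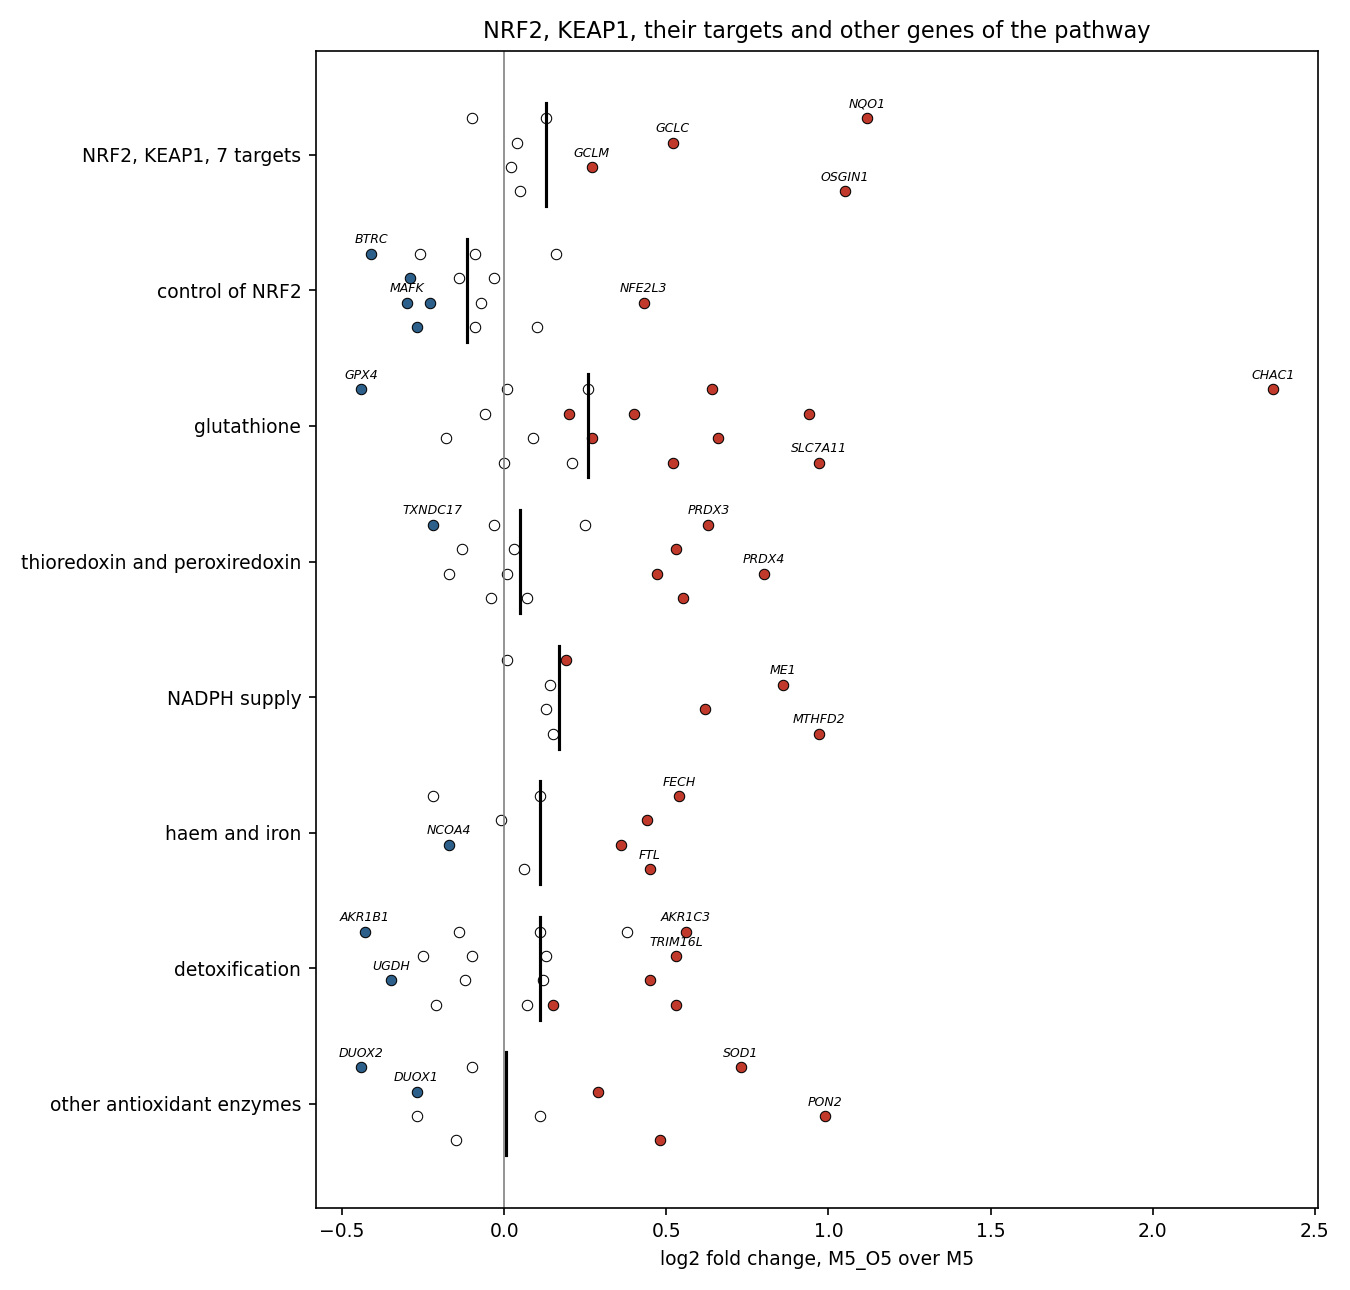
Log2 fold change (M5_O5 over M5) of the 9 genes and of the 89 tested genes of the 7 lists. Filled points passed the test (red higher, blue lower in M5_O5), open points did not, vertical bars are medians, points are spread vertically for legibility, and CHAC1 lies farthest out, at 2.37.

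Among 14 tested genes that control NRF2, 1 was higher, 5 were lower and 8 did not pass, with a median of -0.11. The lower ones were BTRC (-0.41, adjusted p = 0.000279, edgeR), the receptor subunit of a ubiquitin ligase that recognises NRF2, the small MAF genes MAFK (-0.30) and MAFF (-0.27), whose products are the DNA-binding partners of NRF2, the ubiquitin ligase gene SYVN1 (-0.29) and BACH1 (-0.23), whose product competes with NRF2 for its elements and represses HMOX1. BACH1 had 292.1 ± 20.8 CPM in M5_O5 and 341.7 ± 12.3 in M5 (SD, n = 4). In TPM it had 88.3 ± 8.49 and 94.8 ± 9.77 (SD, n = 4), and on that scale the groups overlapped. MAFK did not pass under library totals alone or on the TPM scales (adjusted p up to 0.219). NFE2L3, a relative of NFE2L2, was higher (0.43, adjusted p = 0.00908, edgeR). Its groups overlapped, at 11.5 to 13.8 CPM in M5_O5 and 8.42 to 12.2 CPM in M5 (two-sided exact permutation test, p = 0.0571). CUL3, SQSTM1 and GSK3B did not pass.

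In the glutathione list 9 of 17 tested genes were higher, 1 was lower and 7 did not pass, with a median of 0.26. CHAC1, which degrades glutathione and is also a target of the stress factor ATF4, had the largest excess in M5_O5. However, its 15.5 ± 9.15 CPM in M5_O5 (SD, n = 4) ranged from 3.49 to 23.5. The lowest of these, M5_O5 replicate 1, lay just above the highest M5 library, at 3.33 CPM. CHAC1 passed in all 18 alternatives. SLC7A11, the cystine transporter that feeds glutathione synthesis, had 23.2 ± 2.18 CPM in M5_O5 and 11.9 ± 2.64 in M5 (0.97, adjusted p = 5.08e-05, edgeR). GLRX (0.94), GSR, the glutathione reductase (0.66), ABCC2 (0.64), GPX2 (0.52), SLC3A2 (0.40), GGCT (0.27) and MGST3 (0.20) were the other genes that were higher. Of these, GGCT had groups that overlapped. GPX4, which reduces lipid peroxides, was lower (-0.44, adjusted p = 0.000745, edgeR). The glutathione transferase GSTP1 was at 539.3 ± 52.6 and 535.3 ± 63.2 CPM and did not pass.

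Of 14 thioredoxin and peroxiredoxin genes, 5 were higher, 1 was lower and 8 did not pass, with a median of 0.05. PRDX4 of the endoplasmic reticulum (0.80, adjusted p = 2.61e-06, edgeR) and PRDX3 of mitochondria (0.63, adjusted p = 1.38e-05, edgeR) were higher in M5_O5 by the most. PRDX2, PRDX6 and TXNRD3 were higher beside them, and the groups of TXNRD3 overlapped. TXNDC17 was lower (-0.22, adjusted p = 0.0139, edgeR), a call lost in 7 alternatives. PRDX1 and TXN, which are induced by NRF2 in many cells, had log2 fold changes of -0.04 and 0.01 and did not pass.

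All 8 genes of NADPH supply were tested, and 4 of them were higher, none was lower and 4 did not pass. MTHFD2, of mitochondrial folate metabolism, was higher in M5_O5 by 0.97 (adjusted p = 1.99e-06, edgeR), the malic enzyme ME1 by 0.86 (adjusted p = 9.57e-07, edgeR) and IDH1 by 0.62. ME1 had 34.7 ± 0.587 CPM in M5_O5 and 19.1 ± 1.16 in M5 (SD, n = 4). In the pentose phosphate pathway, TKT was higher by 0.19, with groups that overlapped, and PGD (0.13), TALDO1 (0.14) and PGLS (0.01) did not pass.

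Among 9 tested genes of haem and iron handling, 4 were higher, 1 was lower and 4 did not pass. FECH, the last enzyme of haem synthesis, was higher in M5_O5 by 0.54 and FTL, the ferritin light chain, by 0.45 (adjusted p = 0.000196, edgeR). The heavy chain FTH1 had a log2 fold change of -0.22 and did not pass (adjusted p = 0.0798, edgeR). BLVRB and TFRC were also higher. NCOA4, which carries ferritin to lysosomes, was lower by -0.17, a call lost in 5 alternatives.

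Among 17 tested detoxification genes 5 were higher, 2 were lower and 10 did not pass. AKR1C3 (0.56, adjusted p = 6.71e-06, edgeR) and TRIM16L (0.53) were higher in M5_O5 by the most, and CBR1, PIR and AKR1C2 were also higher. The groups overlapped for PIR and for AKR1C2. AKR1C1, AKR1C2 and AKR1C3 are near-identical in sequence, as are TRIM16 and TRIM16L, so their separate values are uncertain. The aldose reductase AKR1B1 (-0.43) and UGDH (-0.35) were lower, which did not hold on the TPM scales. The last list joined antioxidant enzymes with oxidases, and 4 of its 10 tested genes were higher (PON2 by 0.99, SOD1 by 0.73, CAT by 0.48 and MSRB1 by 0.29). For MSRB1 the groups overlapped. The 2 lower ones, DUOX2 by -0.44 and DUOX1 by -0.27, encode producers of hydrogen peroxide and not antioxidant enzymes. They are counted among the lower genes of the lists. DUOX1 and DUOX2 are close in sequence, and DUOX1 did not pass after removal of the expression trend (-0.15, adjusted p = 0.0597, edgeR).

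The genes whose log2 CPM over the 8 libraries was most like that of NQO1, out of 8680 genes whose mean level was 10 CPM or more, were IL6 (Pearson's r of 0.999), CAV1 (0.998) and CCL2 (0.997). IL6 and CCL2 encode inflammatory signals and CAV1 encodes a caveolin, and their log2 fold changes, M5_O5 over M5, were 1.62, 1.76 and 0.74. For NFE2L2 they included TMCO4 and BBS2, with r of 0.950 and 0.937. These coefficients are descriptions over 8 libraries that fall into 2 groups, so that any genes that differ between the groups are correlated.

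The span of TXNRD1 in RefSeq contains EID3, and that of OSGIN1 overlaps NECAB2. These had 3 to 12 and 0 to 2 reads per library and were too low to be tested. Antisense transcripts listed for NQO1, GCLC and TXNRD1 in RefSeq are not in the table, and whether counting used the strand is not given in the sources used here.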

How the data were processed

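RNA from 8 HaCaT cultures was sequenced. Per the methods, mapping by the authors used HISAT2 and quantification StringTie. The submitters' processing notes name HISAT2 2.1.0, Bowtie2 2.2.5 and RSEM 1.2.8 and the mouse build mm10, although the deposited table lists human RefSeq transcripts, so the build was taken as unknown. The authors deposited estimated counts, not normalized, TPM scaled to a common total per library and FPKM (not used here) for 86639 transcripts, and group means, which were not used. Of the estimated counts 53.8% were fractional, so they were summed by Entrez gene to 17131 genes and rounded. RefSeq names matched 17072 of these. None of the 4181 repeated transcript placements belongs to the 9 genes.

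Genes were filtered with filterByExpr (12434 kept), scaled by TMM and tested with edgeR 4.0.16 in R 4.3.3, with Benjamini-Hochberg adjustment. Each standard error is the log2 fold change divided by the square root of F, and gave the 95% interval. The script was tested on simulated data. Replicate pairs differed by 2.03 to 16.5 in chi-square per gene, more than the 1 that sampling noise gives, so all libraries were counted. Pairs with M5 replicate 1 gave 10.3 to 16.5, and the other M5 pairs 2.03 to 4.06. Pairs with M5_O5 replicate 1 gave 7.12 to 11.1, and the other M5_O5 pairs 3.05 to 7.15. Whether the libraries numbered 1 share a source of difference was not tested. Single values were compared with two-sided exact permutation tests. Alternatives were DESeq2 1.42.0, limma 3.58.1 on log2(TPM + 1) and log2(TPM + 0.1), other scalings and filters, a replicate block and each library left out.

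The 9 genes and the lists were chosen with earlier results of these data known. Named were the 9 genes and, in each list, up to 2 passing genes of at least 1 CPM with the largest difference in each direction, and the 3 genes most correlated with NFE2L2 and with NQO1. Other list genes were named after their values were seen. Some genes that these rules reach are not reported here.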

Additional observations from a re-analysis of the deposited data

Results flagged for a closer look

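In 36 groups of 4 values, each was searched for a library distant from its 3 companions. There were 2 such cases, and chance alone yields about 1 in 20 (1.8). Both were M5 replicate 1, the library with the smallest total. Its GCLC level was 30.2 CPM, against 21.4 to 22.5 CPM in the other M5 libraries, and the log2 fold change of GCLC was 0.649 without it. Its ratio of SRXN1 to PRDX1 was 0.0625, against 0.0699 to 0.0706 in the others. The part of this library's depth in these values was not tested.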

How the results depend on the processing

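Of 558 values for single genes over 18 alternatives, 513 kept their direction and their side of the threshold, 27 lost and 10 gained a call, and 8 turned in sign, none of a gene that passed. Those were KEAP1 with library size only (0.016) and on both TPM scales (0.023), HMOX1 with the expression level trend removed (-0.068) and without M5_O5 replicate 2 (-0.011), M5_O5 replicate 3 (-0.037) or M5 replicate 1 (-0.04), and SRXN1 without M5 replicate 1 (-0.016). With each library left out HMOX1 reached up to 0.146 and SRXN1 up to 0.044. With library size only, 7 of the 9 genes were higher and pathway genes lower in M5_O5 numbered 7, with 3858 genes higher and 1008 lower over all. With the expression level trend removed, 6 of the 9 genes were higher, NFE2L2 and TXNRD1 being added. With limma 4 pathway genes were lower on each TPM scale, and 761 and 768 over all, beside 3261 and 3264 higher. With the 2-fold threshold, 2 of the 9 genes and 1 pathway gene were higher, 0 pathway genes lower, and 357 and 41 over all. The cause of these shifts was not tested, except that the 2-fold rule is stricter by construction. Leaving out single libraries gave 3 to 4 of the 9 genes higher and 0 lower, 28 to 36 pathway genes higher and 11 to 16 lower, and over all 1902 to 2872 and 1676 to 2504. With the replicate number as a block, 5 of the 9 genes were higher, TXNRD1 being added (0.129, adjusted p = 0.0473, edgeR), and 36 pathway genes were higher and 16 lower. Nothing in the labels ties libraries of the same number, whose deviations correlated by 0.209, 0.0986, -0.00358 and 0.013, and not every library correlated best with its own number. The ratios and transcript shares kept their side of the threshold with counts in place of TPM. With each library left out, differences ranged from 0.085 to 0.198 for NFE2L2/KEAP1, from -0.333 to -0.223 for GCLM/GCLC, from 0.105 to 0.151 for TXNRD1/TXN, from 0.031 (without M5 replicate 1) to 0.115 (without M5_O5 replicate 1) for SRXN1/PRDX1, and from -0.553 (without M5 replicate 2) to 1.65 (without M5 replicate 1) percentage points for NQO1 NM_000903. For KEAP1 they ranged from 1.16 to 7.87 points for NM_012289 and from -9.73 to -3.34 for NM_203500, smallest without M5_O5 replicate 4 and largest without M5 replicate 1. Of the 9 genes OSGIN1 is the most limited by depth, at 70 reads in its lowest library, and some list genes had fewer, such as CHAC1 at 38.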

Other observations

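In level per length, the most abundant transcripts among the 89 tested pathway genes were those of FTH1 at 21220 TPM, SOD2 at 5528 TPM, GSTP1 at 1991 TPM and FTL at 1634 TPM, as means over the 8 libraries. None of the 9 core genes came near these, and NFE2L2, at 153.6 TPM, ranked above 93.9% of all genes tested. FTH1 and FTL have many processed copies in the genome, so their counts are uncertain. SOD2, the mitochondrial superoxide dismutase and a known target of cytokine signaling, had 6193 ± 245 CPM in the M5_O5 and 6862 ± 204 CPM in the M5 libraries (SD, n = 4), groups that did not overlap, and a log2 fold change of -0.15 that did not pass (adjusted p = 0.0777, edgeR). In TPM its means ran the other way, 5624 ± 369 and 5433 ± 225 (SD, n = 4).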
